A study of Saccharomyces cerevisiae with 4 samples.

Results

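Arp4 summits lying in the 5′ part of a protein-coding gene (the first 50% of its annotated length), 200 bp or more past its annotated start, numbered 199 of the 1430 peaks in the deposited list (13.9%, Wilson 95% interval 12.2 to 15.8). They were chosen by position alone: the summit had to fall inside a gene of the R64 annotation and in no RNA gene, and the longest gene was used where genes overlapped. They fell in 164 genes, which are 3.05% of the 5376 nuclear protein-coding genes of at least 402 bp, the shortest length that can hold such a summit. The last 50% of the length is called the 3′ part below, also without the first 200 bp. Because the rule used the peak calling, the numbers below on position, fold enrichment, width and gene length describe these summits and carry no test.

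The study used chromatin immunoprecipitation followed by sequencing in the budding yeast Saccharomyces cerevisiae. Wild-type cells growing exponentially in YPD at 30 °C carried ARP4-3FLAG (Arp4 with a Flag tag, 2 samples) or no tag (2 samples), and a Flag antibody was used on the chromatin of both. What is described here is 1 peak list on 16 chromosomes with no values per sample, so no value carries a replicate error, the read depth is unknown, and how the untagged samples entered the peak calling is not given in the sources used here. Fold enrichment is the authors' ratio over the peak caller's background at the summit. The −log10 q is the caller's measure of significance, where q is a false discovery rate, and it is not the size of the excess.

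Arp4 is a nuclear actin-related protein found in the histone acetyltransferase NuA4 and in the remodelling complexes SWR1 and INO80. These complexes are best known from promoters, where SWR1 places the histone variant H2A.Z into nucleosomes beside the nucleosome-free region. NuA4 acetylates histone H4 and H2A at promoters and has also been found over transcribed coding regions. A summit deep in a gene lies away from the place where these complexes are best described.

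The summits in the 5′ part had the lowest median fold enrichment of the 5 places a summit could take. It was 1.46 (quartiles 1.34 and 1.60), against 1.57 for summits in the 3′ part, 1.82 in the first 200 bp of genes, 1.80 between genes and 1.78 in RNA genes, with 1.66 over all 1430 peaks. Among the 199, 7 had a fold of 2 or more (3.52%), against 52 of 418 in the 3′ part (12.4%), 128 of 370 in the first 200 bp (34.6%) and 140 of 381 between genes (36.7%). The highest fold was 2.56, and none of the 199 was among the 100 strongest peaks of the list. The median −log10 q was 8.57, against 15.9 over all peaks.

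**Figure D1:**
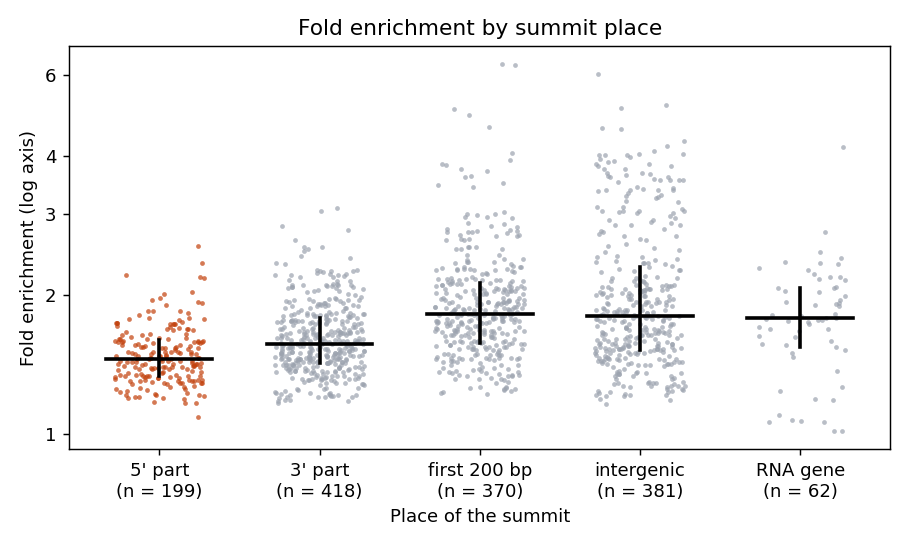
Fold enrichment (log axis) of every peak by the place of its summit: 5′ part, 3′ part, first 200 bp of genes, between genes, and RNA genes. Horizontal bars are medians and vertical bars run between the quartiles; the 199 summits in the 5′ part have a median of 1.46 and stop at 2.56.

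Taken over all genes, summits were sparser in the 5′ part than in the 3′ part. Counted per 100 kb of sequence that could hold a summit of each kind, the 5′ part carried 6.09 summits and the 3′ part 9.50. Without the long unnamed genes described next, these densities were 4.13 and 9.70. Among these other genes the gap was widest from 402 to below 1000 bp of gene length (8.60 and 26.5). It was reversed from 5000 bp on (6.93 and 3.25). In bins of 10% of the gene length, the summits in the 5′ part were most frequent between 30% and 40% of the length (64 summits), and those in the 3′ part between 70% and 80% (116 summits). The lowest bins are open only to long genes, since the first 200 bp were kept out.

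**Figure D2:**
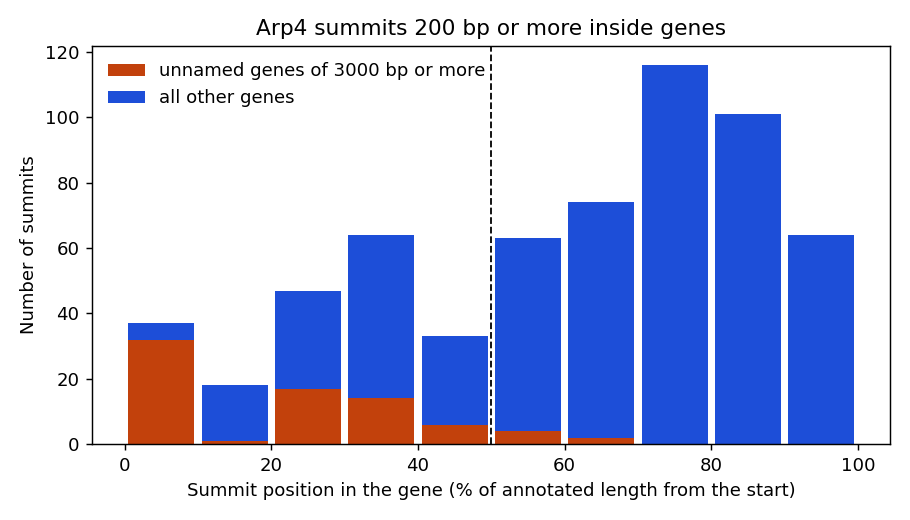
Number of Arp4 summits 200 bp or more inside genes, by position along the annotated length in bins of 10%, with the middle of the gene dashed. Unnamed genes of 3000 bp or more supply 32 of the 37 summits in the first bin and none past 70%.

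By distance, 52 of the 199 summits lay from 200 to below 300 bp from the annotated start and 36 from 300 to below 400 bp. A further 23 lay from 400 to below 600 bp, 29 from 600 to below 1000 bp, 45 from 1000 to below 2000 bp and 14 lay 2000 bp or more into the gene. The farthest was 2726 bp into FAS1. At the limit of 200 bp, the closest summits inside it were those of YHR033W (200 bp, fold 1.31), RPL12B (201 bp, 1.31) and RPL9A (202 bp, 1.61). The closest outside it were RPL9B (199 bp, 1.54), TED1 (199 bp, 1.36) and RRP4 (195 bp, 1.66). At the middle of the gene, TIF4631 (49.6% of the length, fold 1.36), TSR1 (49.0%, 1.58) and SFG1 (49.0%, 1.41) were just inside, and ELP2 (50.2%, 1.39), BET1 (50.5%, 1.65) and TIF5 (50.7%, 1.30) just outside. At both limits the folds of the 3 summits inside and of the 3 outside overlapped.

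The genes were long, though the rule itself gives a longer gene more sequence that can hold such a summit. The median length of the 164 genes was 2214 bp (quartiles 1310 and 5269), against 1323 bp for all genes long enough, and 61 of them (37.2%) reached 3000 bp, against 9.80% of all genes long enough. Genes with a summit in the 3′ part had a median of 1055 bp. Among the 164 genes are 40 that the R64 table lists by systematic name only and that are 3000 bp or longer. Without these the median was 1737 bp over 124 genes, which are 2.33% of the 5313 remaining genes.

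Those 40 unnamed genes held 70 of the 199 summits. Of the 70, 44 also lay in a shorter overlapping gene, and with the shortest gene in place of the longest the unnamed genes of 3000 bp or more held 26. They are 40 of the 63 unnamed genes of 3000 bp or more in the table (63.5%), a share far above the 3.05% of all genes long enough. The 5′ parts of all 63 held 50.2 summits per 100 kb and their 3′ parts 3.95. The 70 summits had a median fold of 1.46 (range 1.17 to 1.93), against 1.45 for the 129 summits in other genes (range 1.09 to 2.56). All 7 folds of 2 or more were in other genes.

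Most of these genes share 1 of 3 lengths. The table lists 24 unnamed genes of 5269 bp, and 23 of them had a summit in the 5′ part. It lists 2 of 5272 bp, both with such summits, and 10 of 5314 bp, of which 6 had one. Together 31 of 36 genes on 12 chromosomes held 57 summits. The 3 lengths were picked as those shared by 2 or more of the unnamed genes, all with a shorter gene beginning at the same base. In the 36 that shorter gene was 1323 or 1317 bp long, and its presence in all of them follows from the choice. The 2 unnamed genes of 5665 bp, both with a summit in the 5′ part, had no such shorter gene and were left out. Those of the 36 without a summit were YNL284C-B (5269 bp) and YBL100W-B, YDR210W-B, YFL002W-A and YOR192C-B (5314 bp), which overlapped no peak at all. The 2 unnamed genes of 5410 bp and the 2 of 3717 bp overlapped none either.

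The summits recurred at the same distances from gene to gene. A summit 217 to 390 bp from the start was present in 28 of the 36 genes, 1 per gene, with a median distance of 290.5 bp. Of these, 22 lay between 217 and 336 bp and 6 between 371 and 390 bp. A second position, 1194 to 1357 bp in, was occupied in 13 genes, with a median of 1300 bp. The third position, 1521 to 1652 bp in, was occupied in 7 genes, all of 5269 or 5272 bp, and 6 of the 7 summits there lay between 1641 and 1652 bp. Past 1700 bp there were 8 summits in 7 genes, the farthest at 2323 bp. Between 400 and 1100 bp there was only 1, in YDR098C-B at 838 bp. The zones were drawn after the positions had been seen.

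Median folds were highest at the second position and lowest past 1700 bp. The first position had a median fold of 1.40 (range 1.26 to 1.74), the second 1.54 (1.34 to 1.93) and the third 1.53 (1.39 to 1.63). Past 1700 bp the median was 1.36 (1.17 to 1.50). In the 3′ part of these genes 6 summits were found, in 6 genes of 5269 bp, and all lay 3109 to 3213 bp from the start with folds of 1.20 to 1.32. From there to the gene end no summit was found in any of the 36.

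**Figure D3:**
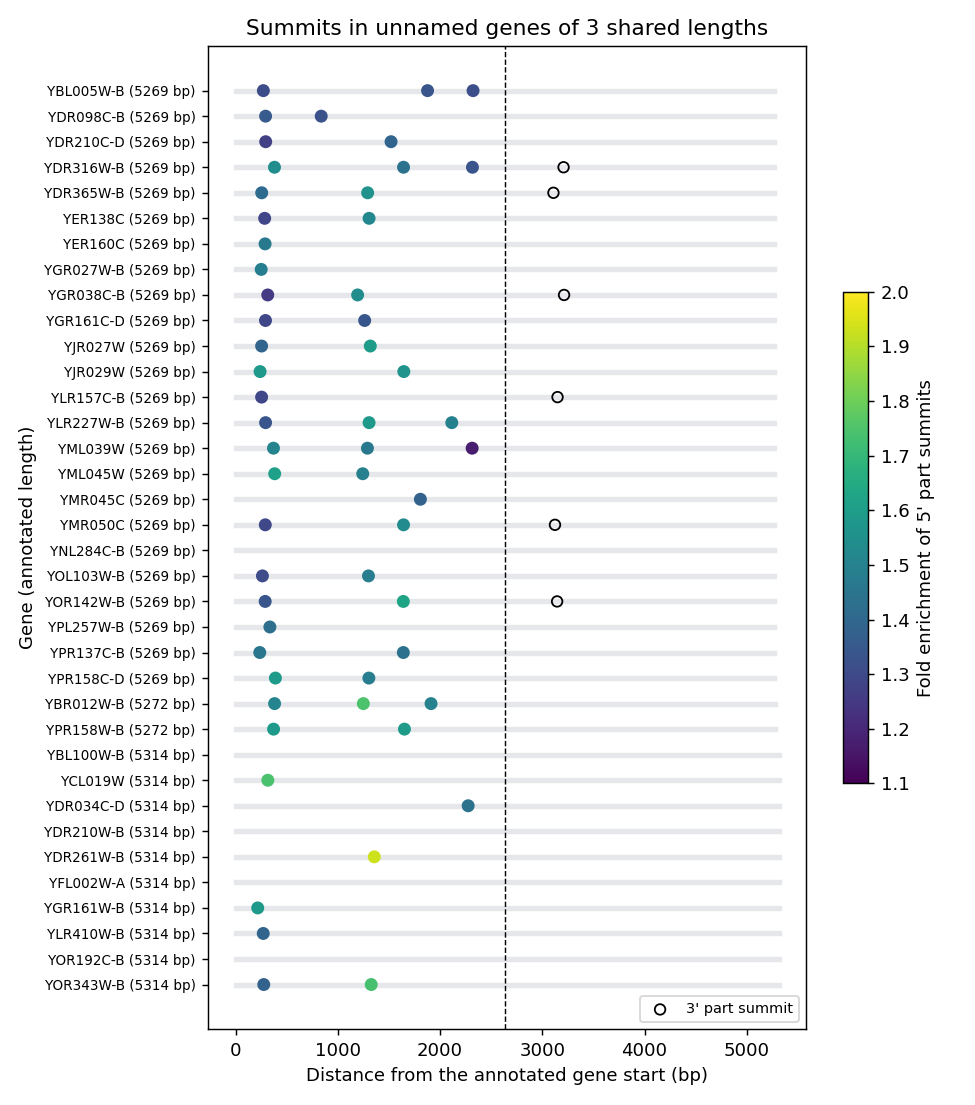
Distance of each summit from the annotated start (bp) in the 36 unnamed genes of 5269, 5272 or 5314 bp, 1 gene per row, with the fold enrichment of summits in the 5′ part as colour and summits in the 3′ part as open circles; the dashed line marks the middle of the genes of 5269 bp. Summits stand in columns with medians of 290.5, 1300 and 1643 bp, and 5 genes have none.

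As examples, YBR012W-B on chromosome II had 3 peaks, with summits 382, 1250 and 1912 bp from its start and folds of 1.51, 1.74 and 1.50. YML039W on chromosome XIII had 3, at 371, 1290 and 2314 bp, with folds of 1.51, 1.46 and 1.17. YDR261W-B on chromosome IV had a single peak (982685 to 982956, summit 1357 bp in) with a fold of 1.93, the highest of the 70. YCL019W on chromosome III had a single peak near its start (85252 to 85536, 316 bp in, fold 1.74). The first position was thus taken alone in some genes, and the second without the first in YDR261W-B.

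These 36 genes also lie near tRNA genes. Of them, 25 (69.4%) were within 1000 bp of a tRNA gene, with a median distance of 534.5 bp, against 7.12% of all genes long enough and a median of 16261 bp. Of the other 124 genes, 6 were that close (4.84%). The table gives the 36 genes no name and no role. As background, budding yeast carries many near-identical copies of Ty retrotransposons, mobile elements with long coding genes of fixed length, some of which insert upstream of tRNA genes. Which genes belong to them is not stated in the table, how alike the 36 sequences are was not analysed here, and how reads with several possible positions were handled is not given in the sources used here. Whether the 57 summits are independent of each other was not tested.

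The Y' helicase genes at chromosome ends, which encode a DNA helicase repeated among subtelomeres, made up a second repeated group. Of 8 annotated, 6 had 1 summit in the 5′ part (background 3.05%), with folds of 1.40 to 1.51. The annotated genes differ in length, from 4149 to 5728 bp, and so did the distance of the summit from the start, from 832 bp in YRF1-4 to 2400 bp in YRF1-6. Measured from the gene end, the 6 summits lay between 3249 and 3346 bp, a span of under 100 bp. How reads with several possible positions were handled is not known here either, and whether the 6 summits are independent of each other was not tested. YRF1-3 and YRF1-7 overlapped no peak. Some unnamed genes were picked after their values were seen, and whether they belong with the Y' genes was not examined. YIL177C and YJL225C, of 5665 bp each, had summits 3651 and 3639 bp from their ends, with folds of 1.68 and 1.57. YEL077C, of 3834 bp, had its summit 3533 bp from its end (fold 1.61). Of the 63 unnamed genes of 3000 bp or more, 22 overlapped no peak. Among those are YLL066C and YLL067C (3717 bp each) and YML133C (4224 bp).

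The remaining genes are led by those of protein synthesis. The lists of ribosomal proteins, ribosome assembly factors and translation factors together had 36 of 331 genes with a summit in the 5′ part (10.9%, background 3.05%). This is not particular to the 5′ part. In the 3′ part (background 7.27%) the initiation, elongation and assembly lists had 12, 9 and 28 genes, against 10, 4 and 17. Nucleotide synthesis (10), cell wall (12) and chaperone lists (7) also had more genes there than in the 5′ part. The lipid and sterol list had fewer (4 against 6). The 3′ part also offers more sequence. Per 100 kb open to a summit, the initiation list carried 69.3 in the 5′ part and 59.6 in the 3′ part. Lipid and sterol genes had 28.4 and 17.0, and chaperones 18.4 and 18.6. Elongation (22.0 and 38.1), assembly (15.8 and 20.1), nucleotide synthesis (23.9 and 38.3) and cell wall (17.3 and 27.1) were denser in the 3′ part. Among the 20 members of highest fold, 6 belong to the protein synthesis lists: PRT1, DBP2, YEF3, RPL24A, NOG2 and EFT1. The lists were chosen with earlier results of these data known, so their counts describe the members. They also depend on the rule: in the first 33.3% of the length 5 genes of the initiation list, 9 assembly factors and 0 elongation factors had a summit, in place of 10, 17 and 4.

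The translation initiation list, which also holds STM1, had 10 of 29 genes (34.5%, Wilson 95% interval 19.9 to 52.7), with 11 summits and a median fold of 1.40. PRT1, a subunit of eIF3, the complex that brings the small ribosomal subunit to mRNA, had the highest fold of all 199 summits. Its peak was narrow (chromosome XV, 1017316 to 1017568, 253 bp), and its summit, 228 bp from the start, had a fold of 2.56. The other 10 summits had folds of only 1.25 to 1.55. RPG1, the largest eIF3 subunit, had 1.40 at 1363 bp. TIF4631, encoding the scaffold eIF4G, had 2 summits, 1.53 at 1008 bp and 1.36 at 1416 bp. STM1, a ribosome-associated protein, had 1.55, and GCD11, the gamma subunit of eIF2, had 1.49. TIF1 and TIF2, which encode the helicase eIF4A, had 1.34 and 1.36, and PAB1, the poly(A)-binding protein, had 1.25. FUN12, whose peak in the first 200 bp had a fold of 6.32, had a second, separate summit 1169 bp in with a fold of 1.40.

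Of the elongation and termination list, 4 of 27 genes had such a summit (14.8%). YEF3, the fungal elongation factor 3, had the widest peak of the whole list at 3036 bp (chromosome XII, 636838 to 639873), which covered 96.8% of the gene. Its summit lay 1088 bp in and its fold was 2.21. EFT1 and EFT2, both encoding elongation factor 2, had peaks of 1488 and 2422 bp with folds of 1.78 and 1.64, and summits 1140 and 1114 bp in. SSZ1, an Hsp70-type partner of the ribosome, had a fold of 1.40.

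Ribosome assembly factors had 17 of 155 genes (11.0%, Wilson 95% interval 6.96 to 16.9) and a median fold of 1.58. DBP2, an RNA helicase, was highest with 2.34 and a peak of 1262 bp (chromosome XIV, 413653 to 414914, summit 438 bp in). NOG2, a GTPase of the large-subunit precursor, had 2.03 with its summit 218 bp in. Genes of the small-subunit processome, which cuts and folds the pre-rRNA, followed with UTP11 (1.74), UTP7 (1.69), PWP2 (1.66) and UTP4 (1.65). The lowest were UTP14 (1.29), AFG2 (1.26) and the helicase gene DBP8 (1.21).

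Ribosomal protein genes had fewer summits in the 5′ part than in the 3′ part. Of 73 large-subunit genes long enough, 4 had a summit in the 5′ part (5.48%, background 3.05%), and 60 had one in the 3′ part, which 7.27% of all genes long enough had. Of 47 small-subunit genes, 1 had one in the 5′ part, ASC1 (fold 1.33), against 38 in the 3′ part. Many of these genes are so short that their 5′ part leaves little sequence past 200 bp. Per 100 kb open to such a summit, large-subunit genes carried 26.2 in the 5′ part and 199.8 in the 3′ part, against 6.09 and 9.50 over all genes. RPL24A had the highest fold of them, 2.19, with its summit 228 bp into a gene of 468 bp. RPL9A (1.61), RPL12A (1.40) and RPL12B (1.31) had theirs 201 to 203 bp in, at the edge of the rule.

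**Figure D4:**
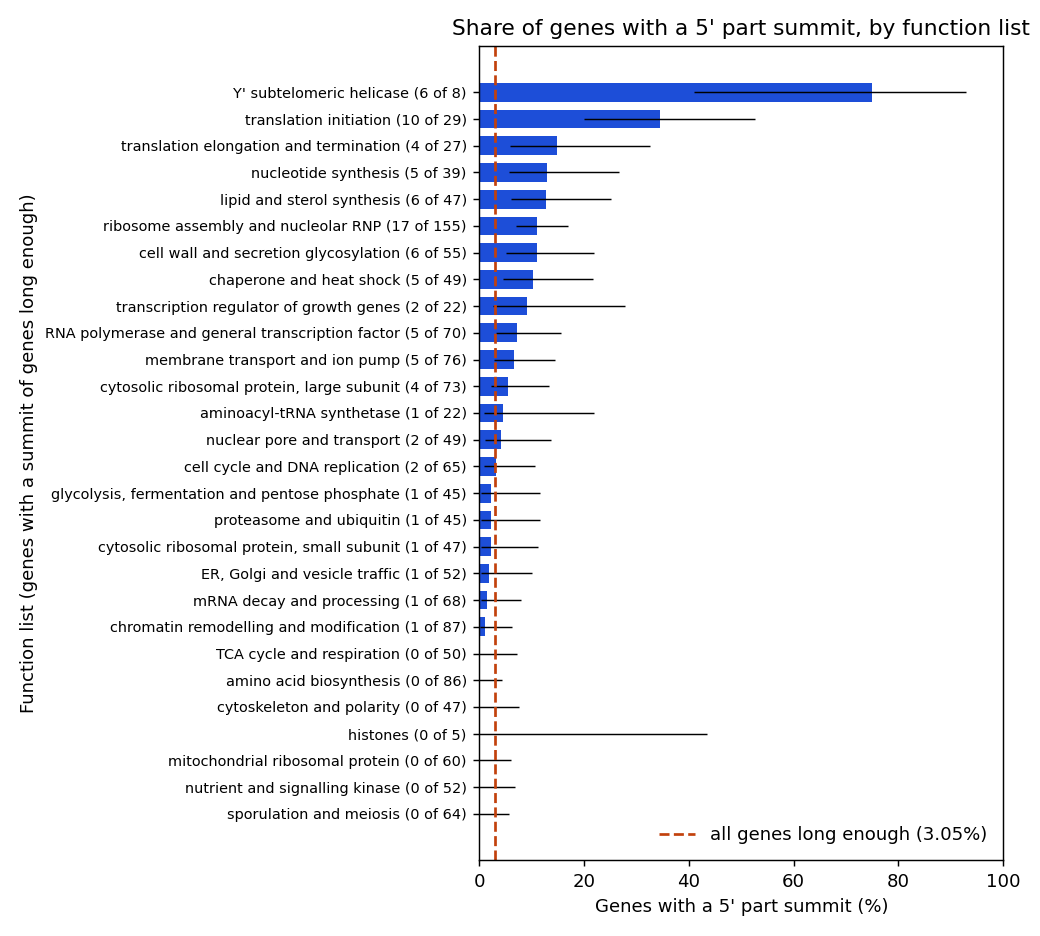
Share of genes with a summit in the 5′ part (%), by function list, with Wilson 95% intervals that cover counting error over genes only. The dashed line marks the 3.05% of all genes of at least 402 bp. The translation initiation list reaches 34.5% and 7 lists have none.

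FAS2 had the most summits of the named genes, 3. The lipid and sterol list had 6 of 47 genes (12.8%, background 3.05%) but 9 summits, with a median fold of 1.74. FAS2, the alpha subunit of fatty acid synthase, had separate peaks with summits 384, 937 and 2056 bp in and nearly equal folds of 1.74, 1.77 and 1.78. FAS1, the beta subunit, had 2, with folds of 1.73 at 852 bp and 1.72 at 2726 bp. OLE1, the fatty acid desaturase, had a peak of 1403 bp that covered 91.5% of the gene (chromosome VII, 398697 to 400099, fold 2.18). FAA4, which activates long-chain fatty acids, had 1.81 with a peak covering 88.5% of the gene. ACC1, the acetyl-CoA carboxylase and the longest of the 164 genes (6702 bp), had 1.38, and the sterol gene ERG11 had 1.33.

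Cell wall genes had 6 of 55 (10.9%, background 3.05%) with a median fold of 1.30, of which FKS1 stood well above the rest. FKS1 encodes the catalytic subunit of the glucan synthase at the plasma membrane. It had 2 summits, with folds of 2.01 at 895 bp and 1.69 at 1517 bp. PSA1 (1.35), GAS1 (1.30), CTS1 (1.30), SCW11 (1.21) and UTH1 (1.09) were all below the median of the list of peaks, and UTH1 was the weakest of the 199.

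Nucleotide synthesis had 5 of 39 genes (12.8%, background 3.05%). They were URA7, a CTP synthase (1.84), FUR1, of pyrimidine salvage (1.83), GUA1, the GMP synthase (1.68), RNR1, the large subunit of ribonucleotide reductase (1.59), and PRS3 (1.29). Chaperone genes had 5 of 49 (10.2%, background 3.05%), all encoding Hsp70-type proteins. The ribosome-associated SSB2 and SSB1 had folds of 1.84 and 1.71 and the cytosolic SSA2 had 1.55, each with a peak covering at least 80% of the gene and SSB2 the most, 96.5%. SSE1 (1.42) and the stress-induced SSA4 (1.35) had narrower ones of 563 and 502 bp.

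RNA polymerase and general factor genes had 5 of 70 (7.14%, background 3.05%). They were RPO26, a subunit shared by the 3 nuclear RNA polymerases (1.92), RPA135, the second largest subunit of polymerase I (1.91), RRN3, its initiation factor (1.70), MOT1, which removes TBP from DNA (1.51), and RPC53 of polymerase III (1.46). The RPO26 summit lay 447 bp upstream of the neighbouring gene PZF1. Only 3 of the 199 summits were within 500 bp upstream of another gene, the others being those of SPC25 and DEG1. Among membrane transport genes, 5 of 76 had a summit (6.58%, background 3.05%). They were FET3, the multicopper oxidase of iron uptake, whose peak of 1835 bp covered 96.0% of the gene (1.78), CTR1, a copper transporter (1.50), QDR1 (1.44), PUT4 (1.40) and ITR1 (1.17).

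Of 87 chromatin genes, INO80, which encodes the ATPase of a complex that holds Arp4, was the 1 gene with such a summit (1.58, 722 bp in). That is 1.15%, against a background of 3.05%. RAP1, the activator of ribosomal protein genes (1.34), and TOD6, a repressor of ribosome assembly genes (1.38), were 2 of 22 growth regulators (9.09%). Single genes came from 5 further lists. They were ILS1 (1.50, 1 of 22, 4.55%), CDC39 (1.42, 1 of 68, 1.47%), GPP1 (1.31, 1 of 45, 2.22%), PUP2 (1.25, 1 of 45, 2.22%) and ARF2 (1.21, 1 of 52, 1.92%). CDC16 (1.97), of the anaphase-promoting complex, and POL2 (1.24), the catalytic subunit of DNA polymerase epsilon, were 2 of 65 cell cycle and replication genes, and their summits lay 221 bp in. Nuclear transport had GSP1 (1.29) and PSE1 (1.22) of 49.

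No gene had such a summit in 7 lists, which hold 364 genes long enough. Among them were amino acid biosynthesis (0 of 86, Wilson upper limit 4.28%), sporulation and meiosis (0 of 64, 5.66%), mitochondrial ribosomal proteins (0 of 60, 6.02%) and signalling kinases (0 of 52, 6.88%). The TCA cycle and respiration (0 of 50), the cytoskeleton (0 of 47) and histones (0 of 5) had none either. Each of these upper limits lies above the background of 3.05%, so a lower frequency than in other genes was not detectable in any of them. Glycolysis and fermentation had 1 of 45, GPP1, a glycerol phosphatase.

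A further 38 genes of the 124 belong to no list. The highest folds among them were YGR079W (1.95), PML39, of the nuclear pore basket (1.85), BSC1 (1.79), EFM5, a methyltransferase of elongation factor 1A (1.75), LHP1, which binds nascent polymerase III transcripts (1.73), and INA1 (1.69). Picked after their values were seen, DEG1 (1.47), CCA1 (1.41), IKI3 (1.40) and TRM7 (1.30) act in tRNA modification or maturation, and PWP1 (1.48) and YAR1 (1.24) in ribosome assembly.

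Some peaks spanned nearly the whole gene, so that the summit is only 1 point of a broad region. Of the 199, 18 (9.05%) were 1000 bp or wider, against 24 of 418 in the 3′ part (5.74%) and 4.55% of all peaks. The 18 had a median fold of 1.70 and a median −log10 q of 28.2, against 1.43 and 7.69 for the other 181. At least 80% of the gene was covered by 18 peaks, a set of the same size that also takes in short genes. PRM7 (2803 bp, fold 1.55) and SPC25 (1017 bp, 1.61) had peaks covering 100% of the gene. At the other end, the narrowest peaks were those of YML039W and CCA1 (221 bp each), YLR410W-B (223 bp), and RAP1 and NAN1 (225 bp each). The median width was 389 bp (quartiles 288.5 and 559), against 380.5 in the 3′ part and 331.5 in the first 200 bp. Only 6 of the 199 peaks reached back over the annotated start of their own gene.

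**Figure D5:**
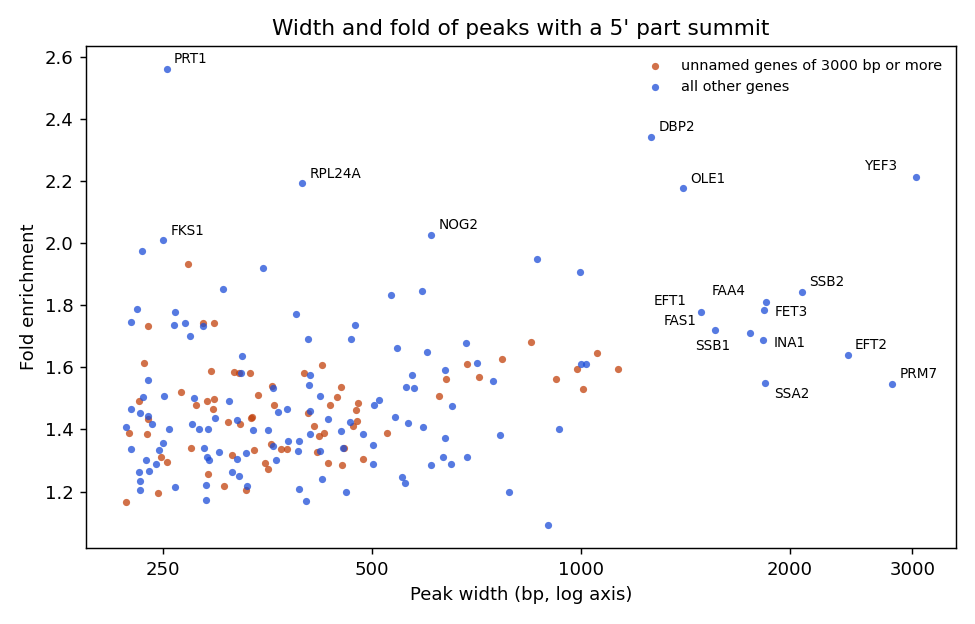
Peak width (bp, log axis) against fold enrichment for the 199 peaks with a summit in the 5′ part. Peaks of 1000 bp or more all have a fold of at least 1.53, while PRT1, the highest at 2.56, is only 253 bp wide.

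More than 1 summit in the 5′ part was found in 29 genes, 6 with 3 and 23 with 2. Of these, 25 are unnamed genes of 3000 bp or more, in which the first and second summit were a median of 1037 bp apart (544 to 1606 bp). The other 4 are FAS2, FAS1, FKS1 and TIF4631, with spacings of 408 to 1874 bp. Besides FAS2, the genes with 3 summits are YBL005W-B, YBR012W-B, YDR316W-B, YLR227W-B and YML039W, all of 5269 or 5272 bp. Of the 25 unnamed genes, 21 have 1 of the 3 shared lengths, and the other 4 are YAR009C, YDR261C-D, YHR214C-B and YNL054W-B. The remaining 135 genes had 1 summit each. The count of 29 rests on the choice of the longest gene: with the shortest gene where genes overlap, 7 genes had several summits.

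Some near-identical gene pairs had their summits at like distances. The pairs named here were picked after their values were seen, and duplicated genes were not counted as a whole. In the 1188-bp genes TIF1 and TIF2 the summits lay 364 and 377 bp in, and both genes had a second one at exactly 1052 bp in a peak of 231 bp, with folds of 1.80 and 1.66. SSB1 and SSB2 had theirs 703 and 745 bp in, and the asparaginase genes ASP3-2 and ASP3-3 had theirs 388 and 442 bp in, with folds of 1.58 and 1.54. RPL9A and RPL9B differed by 3 bp, which put the second outside the rule. In contrast, RPL24B had its summit 248 bp in, past its middle, with a fold of 1.46 against 2.19 in RPL24A, and SSA1 had no summit whereas SSA2 did. Reads from such pairs may be shared between copies, and the part of this in the values was not tested.

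Other summits of the same gene were common. Of the 124 other genes, 36 (29.0%) also had one in the 3′ part, against 7.25% of all genes long enough without the unnamed ones. A summit in the first 200 bp was present in 8 (6.45%, against 5.59%), and one in the 500 bp upstream of the start in 23 (18.5%, against 9.73%). None of these places was occupied in 69 (55.6%, against 79.9%). In these 36 named or shorter genes with summits in both parts, the 5′ part had the higher fold in 12, with a median of 1.40 in the 5′ part against 1.56 in the 3′ part. In the 8 with a summit in the first 200 bp, that summit was higher in all 8, with medians of 1.41 in the 5′ part and 2.05 in the first 200 bp. PRT1 was among the 12, with 2.56 against 1.89, as were FKS1 with 2.01 against 1.85 and FAS2 with 1.78 against 1.51. DBP2 went the other way, with 2.34 against 3.05.

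Outside the unnamed set the share of genes did not run evenly with length. The share with a summit in the 5′ part was 1.35% for genes under 1000 bp, 2.34% from 1000 bp, 3.25% from 2000 bp, 2.31% from 3000 bp and 16% from 5000 bp (12 of 75, Wilson 95% interval 9.40 to 25.9). Per 100 kb of sequence open to such summits the order was different, with 8.60, 4.52, 3.37, 1.40 and 6.93 summits. The 12 longest include 5 of the Y' helicase genes, besides FAS1, FAS2, FKS1, ACC1, POL2, CDC39 and MOT1. The 5 shortest genes with such a summit are RPL24A (468 bp), RPL12A and RPL12B (498 bp each), YAH1 (519 bp), which encodes the mitochondrial ferredoxin (fold 1.46), and RPO26 (544 bp).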

How the data were processed

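Chromatin precipitated with an antibody against Flag was sequenced from 2 Arp4-3Flag and 2 untagged samples, grouped by the titles in the labels. The tools named in the submitters' processing notes are MACS2, SAMtools 1.4, BWA 0.7.15-r1140 and fastp 0.21.0. The sources used here do not give their settings, the genome build, the control or any pooling of samples. Each deposited peak has a fold ratio, the −log10 of q, a score that is 10 times this value rounded down (not used further), and other deposited values, namely position and summit. The lowest −log10 q was 1.31.

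Summits, counted from 1, were assigned with pandas 2.3.3, scipy 1.17.1 and numpy 2.4.6 under Python 3.11.15 (figures with matplotlib 3.10.9) to 6002 protein-coding genes of the R64 RefSeq table, with strand read from systematic names. Distance 0 is the first base of the gene. As a check of the build, a summit was found 100 bp or less from 48 of 275 tRNA genes. With all summits displaced by 200 to 1000 bp, this held for 3 to 13. Assignment was tested on simulated data.

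Members and the 28 function lists were chosen with earlier results of these data known, and 3 of 1596 list entries had no match in the table. Named genes are the 20 of highest fold, the widest, narrowest, longest and shortest, those with several summits, those at the limits of the rule, and up to 4 per list, with the rest of short lists named after their values were seen. The intervals printed beside shares reflect counting error alone. With 1 list there are no replicates, and no test was run.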

Additional observations from a re-analysis of the deposited data

How the results depend on the processing

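No paired analysis was possible because the 1 peak list carries no values per sample. Alternatives changed the rule, the peak threshold or the gene set, and medians were compared with exact binomial 95% intervals over summits or genes. With the shortest gene where genes overlap, 7 genes had several summits and the median gene length was 1690.5 bp. From 100 bp on, 256 genes had a summit, with a median fold of 1.50 and length of 1581 bp; from 300 bp on, 16 genes had several. The first 33.3% of the length held 129 summits in 104 genes, 45 of them in function lists. At or above the median fold of all peaks, 39 summits remained in 35 genes, 3 with several and 24 in lists, with a median fold of 1.78 and width of 467 bp. At a −log10 q of at least 10 there were 85 summits in 74 genes, 10 with several and 37 in lists, with medians of 1.61, 451 bp and a gene length of 2815.5 bp. With the peak midpoint the median gene length was 1743 bp. With the whole peak inside the 5′ part and 200 bp from the start there were 79 summits in 69 genes, 9 with several and 29 in lists, a median width of 329 bp and a gene length of 5269 bp. Without the unnamed genes of 3000 bp or more, added after seeing the data, 129 summits remained, 4 genes had several and the median length was 1737 bp. The other 38 of 70 such values, among them all 7 without summits upstream of another gene, stayed within 1.5 times the count or within the interval. Counts for single gene groups moved more, in 40 of 109 values. The initiation list had 5 genes in the first 33.3% of the length, 3 at a −log10 q of at least 10, 3 with the whole peak inside and 1 at or above the median fold, in place of 10. Elongation factors had 0 in place of 4 with the peak midpoint, in the first 33.3% and with the whole peak inside. Ribosome assembly factors had 5 in place of 17 at or above the median fold, at the stricter q and with the whole peak inside, and 9 in the first 33.3%. Large-subunit ribosomal protein genes had 0 in place of 4 from 300 bp on, in the first 33.3% and with the whole peak inside. Y' helicase genes had 1 in place of 6 in the first 33.3% and 0 at or above the median fold. Chaperones had 0 in place of 5 and nucleotide synthesis 1 in place of 5 with the whole peak inside. Cell wall genes had 1 in place of 6 at or above the median fold and at the stricter q. The depth of the libraries is unknown and limits what a weak peak can show.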
